A study of Mus musculus with 12 samples.

Results

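The transcripts of 6 core genes of Hedgehog signalling (Gli1, Gli2, Gli3, Ptch1, Smo and Sufu) were followed in mouse embryonic stem (ES) cells exposed to panobinostat (LBH589), a hydroxamate inhibitor of histone deacetylases. The genes were taken by name, and every probe annotated to them was read, 15 of the 45281 probes on an Illumina bead array. Earlier results of the same data were known when they were listed. In those results Gli2 had stood out for its low signal at 6 h and for a second probe that did not show it, so the values of Gli2 chose it and are given here as a description with no test. The other 5 genes belong to the same pathway, and their changes were tested.

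The cells were wild type male E14 ES cells of strain 129/Ola, grown on gelatin without feeder cells in medium with fetal calf serum and LIF, the cytokine that maintains self-renewal. Untreated cells (0 h) were compared with cells kept in 50 nM panobinostat for 2 h, 6 h or 18 h, with 3 arrays per time and 12 in all. The labels name no vehicle and no untreated cells at the later times, so the drug, handling and time in culture cannot be told apart. Nothing in them ties the 3 arrays of each time to separate cultures, so a p-value here covers the scatter among these arrays, and that scatter may be technical.

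Hedgehog ligands bind the receptor Ptch1, which otherwise holds back Smo, a 7-transmembrane protein that carries the signal into the cell. Active Smo releases the zinc finger factors Gli2 and Gli3 from their inhibitor Sufu. Gli2 acts mainly as an activator and Gli3 mainly as a repressor, while Gli1 and Ptch1 are themselves switched on by the pathway in many tissues, so their transcripts serve as its readouts. Signalling runs through the primary cilium. In the embryo the pathway patterns the neural tube and the limbs.

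A transcript was called detected where the deposited detection p-value against the negative control beads of that array was under 0.05, and a probe was tested if it was detected on at least 3 arrays. This held for 6 of the 15 probes, from 5 of the 6 genes. The only probe of Gli1 (ILMN_2774992) was detected on 0 of 12 arrays, with normalized log2 signals of 4.33 to 4.60 at all times. The remaining 8 untested probes, 1 each of Gli3 and Ptch1, 3 of Smo and 3 of Sufu, were detected on 0 to 2 of the arrays, so that Smo and Sufu were each read by 1 probe of 4. Below, level means normalized log2 signal, change means a difference of such levels, and levels of different probes are not set against each other.

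**Figure D1:**
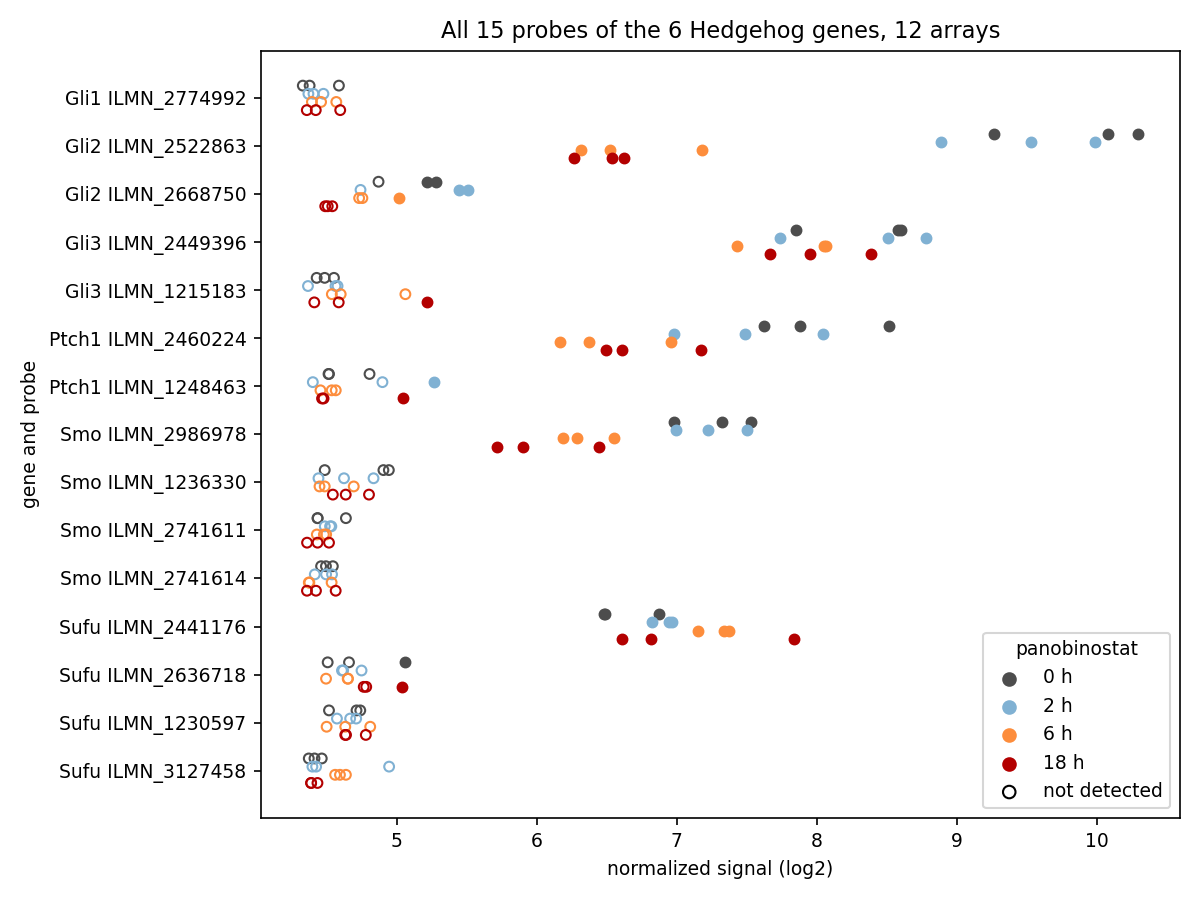
Normalized log2 signal of each of the 15 probes on each of the 12 arrays, coloured by time in panobinostat, with open symbols where the probe was not detected (detection p of 0.05 or more). Of the 15 probes 5 were detected on all 12 arrays, and a second probe of Gli2 was detected on 5.

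For the 3 genes with lower signal at the later times, Gli2, Ptch1 and Smo, the sequence around the annotated start site is shown, from 250 bases before it to 50 after it, as given by RefSeq on GRCm38.p6. They lie at chr1:119053570-119053869 (minus strand), chr13:63565686-63565985 (minus strand) and chr6:29735247-29735546 (plus strand). Each is written 5′ to 3′ on the strand of its gene, with CG pairs in capitals.
Gli2: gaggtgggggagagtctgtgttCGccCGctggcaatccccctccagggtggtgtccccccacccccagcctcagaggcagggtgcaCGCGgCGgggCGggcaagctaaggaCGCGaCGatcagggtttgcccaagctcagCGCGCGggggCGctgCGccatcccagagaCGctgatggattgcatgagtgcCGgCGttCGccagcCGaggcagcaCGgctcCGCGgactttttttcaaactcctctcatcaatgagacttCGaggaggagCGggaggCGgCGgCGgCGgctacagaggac
Ptch1: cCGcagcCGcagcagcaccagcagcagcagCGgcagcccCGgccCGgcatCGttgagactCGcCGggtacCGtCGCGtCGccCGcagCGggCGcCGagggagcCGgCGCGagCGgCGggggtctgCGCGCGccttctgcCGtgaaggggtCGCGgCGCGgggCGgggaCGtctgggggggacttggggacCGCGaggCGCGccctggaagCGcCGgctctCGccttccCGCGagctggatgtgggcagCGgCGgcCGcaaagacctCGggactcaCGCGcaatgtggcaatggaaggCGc
Smo: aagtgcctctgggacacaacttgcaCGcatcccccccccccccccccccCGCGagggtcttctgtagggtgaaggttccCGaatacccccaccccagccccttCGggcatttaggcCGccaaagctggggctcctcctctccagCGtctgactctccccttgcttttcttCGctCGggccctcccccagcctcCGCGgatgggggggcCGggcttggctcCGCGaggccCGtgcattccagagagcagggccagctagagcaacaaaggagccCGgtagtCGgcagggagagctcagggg

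These windows hold 28 CG pairs for Gli2, 47 for Ptch1 and 17 for Smo, against a median of 7 over 32851 promoter windows of the same length. As many as in Ptch1 occur in 1.44% of windows, as many as in Gli2 in 14.2% and as many as in Smo in 31.4%. The windows of Gli3 and Sufu, which did not pass at any time, hold 39 and 12. The Gli binding sequence GACCACCCA was searched on both strands. It was found in 0.253% of all windows and in none of the windows of Gli2, Gli3, Ptch1, Smo and Sufu, which says only that these letters are not in them.

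The transducing factor Gli2 is described first. Its brighter probe (ILMN_2522863) read 10.08, 9.26 and 10.29 on the 0 h arrays, 9.53, 8.89 and 9.99 at 2 h, 6.52, 6.32 and 7.18 at 6 h, and 6.27, 6.62 and 6.54 at 18 h. Every array at 6 h and 18 h lay below every array at 0 h and 2 h, while the arrays at 0 h and 2 h overlapped, as did those at 6 h and 18 h. Matched by replicate number, each 2 h array lay below its 0 h counterpart. The mean was 6.67 ± 0.45 at 6 h and 6.48 ± 0.19 at 18 h, against 9.88 ± 0.54 at 0 h (SD, n = 3 each), 9.20-fold and 10.6-fold lower. The change was -0.41 (SE 0.31) at 2 h, -3.20 (SE 0.31) at 6 h and -3.40 (SE 0.31) at 18 h. The transcript was still detected on all 3 arrays at each time. In the signals as deposited, before any correction, this probe averaged 218.3 ± 65.4 units at 6 h and 207.6 ± 30.2 at 18 h, against 897.7 ± 302.96 at 0 h.

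The second probe of Gli2 (ILMN_2668750), annotated to the same RefSeq transcript, lay near the detection limit. It read 5.28, 4.87 and 5.21 at 0 h, 5.44, 5.51 and 4.74 at 2 h, 5.01, 4.73 and 4.75 at 6 h, and 4.49, 4.54 and 4.51 at 18 h. It was detected on 2, 2, 1 and 0 of the 3 arrays at these times in turn, so it entered the tested set through its early arrays. Its change was -0.29 (SE 0.20) at 6 h, with overlapping groups, and -0.61 (SE 0.20) at 18 h, with every array below those at 0 h. Since it was not detected at 18 h, this level is only a limit. It was taken per array as the higher of the probe's own signal and the lowest signal detected. The 0 h mean, with 2 of 3 arrays detected, was 1.07-fold above that limit (measured means 4.51 at 18 h and 5.12 at 0 h). In the signals as deposited the probe averaged 115.7 ± 7.0 units at 18 h, against 115.9 ± 10.8 at 0 h, so the difference appeared only after correction and normalization. Both probes had their lowest normalized readings at 18 h, but the large difference at 6 h appeared in 1 of them. The dimmer probe had little room to show a fall of that size. Its mean at 0 h was 5.12, and the limit at 18 h was 5.02. Why they differ was not tested.

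**Figure D2:**
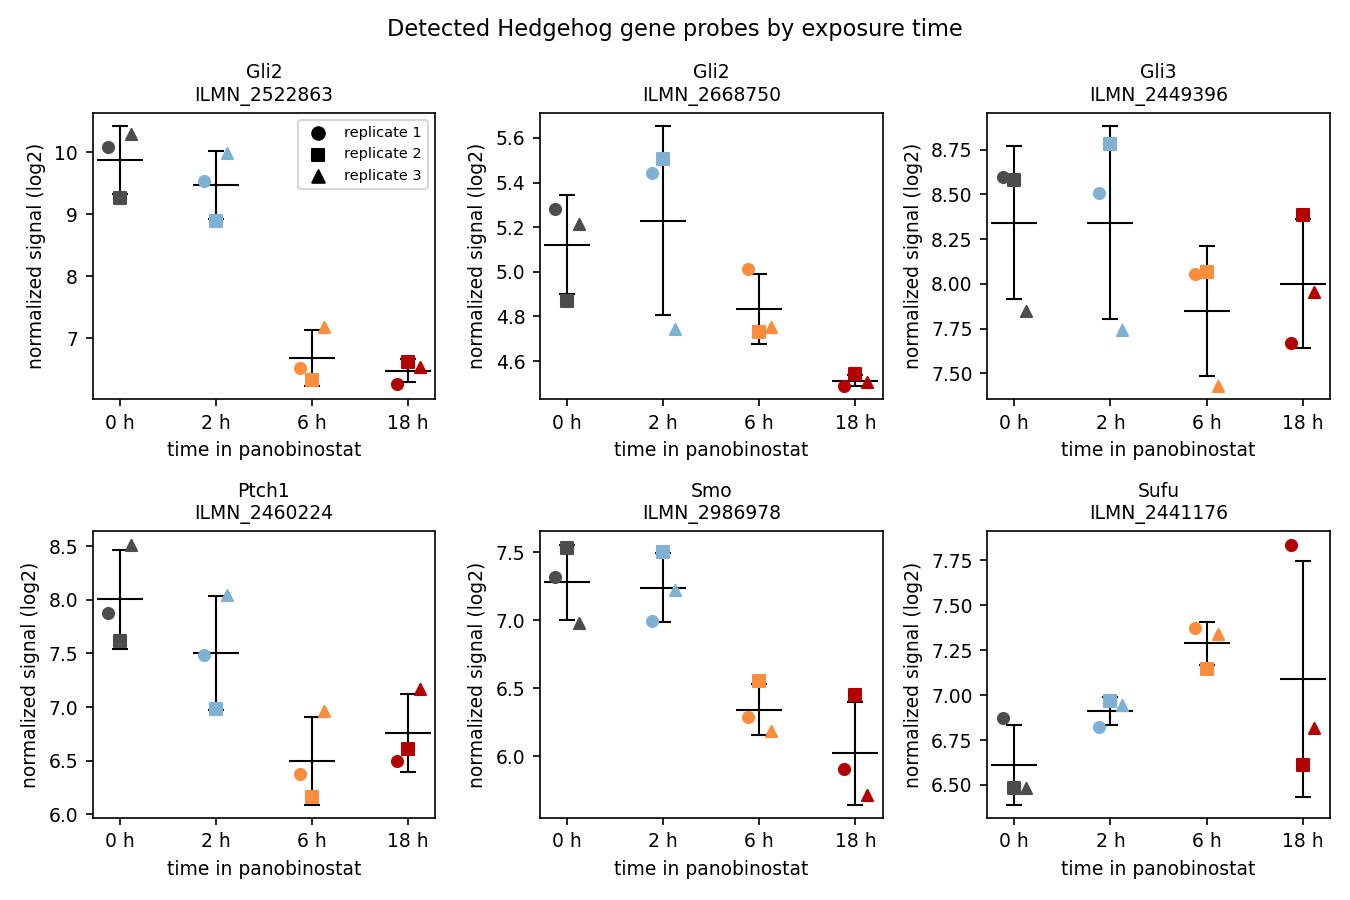
Normalized log2 signal of the 6 tested probes by time in panobinostat (x axis), with a symbol per array that marks its replicate number, and the mean ± SD of the 3 arrays in black; the y axis differs between panels and does not start at 0. Gli2 (ILMN_2522863), Ptch1 and Smo have no array at 6 h or 18 h as high as any at 0 h, whereas Gli3 overlaps throughout.

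Among the 5 other genes, 4 had a testable probe. With limma at an adjusted p under 0.05, none of the 4 passed at 2 h, where 2.56% of all 20029 probes tested passed (1.71% higher and 0.854% lower) and 0 of the 4 had an unadjusted p under 0.05. At 6 h the receptor Ptch1 and its partner Smo fell, 2 of 4, with 27.2% of all probes passing (14.3% higher and 12.9% lower). The same 2 were lower at 18 h, with 32.3% of all probes passing (16.5% higher and 15.8% lower). The median change over the 4 was -0.71 at 6 h and -0.79 at 18 h, against -0.01 over all probes at both times. From 6 h to 18 h none of the 4 passed, and 0 had an unadjusted p under 0.05, with 9.15% of all probes passing (4.81% higher and 4.33% lower).

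Ptch1, the ligand receptor, read 7.88, 7.62 and 8.52 at 0 h, 7.48, 6.98 and 8.04 at 2 h, 6.37, 6.16 and 6.96 at 6 h, and 6.49, 6.61 and 7.17 at 18 h (ILMN_2460224). The arrays at 6 h and 18 h all lay below those at 0 h, and those at 2 h overlapped with 0 h. Its mean was 6.50 ± 0.41 at 6 h, against 8.01 ± 0.46 at 0 h (SD, n = 3 each), and it fell by 1.51 (SE 0.30, adjusted p = 0.00263, limma), or 2.84-fold. At 18 h it averaged 6.76 ± 0.36 and was lower than at 0 h by a change of -1.25 (SE 0.30, adjusted p = 0.00637, limma). At 2 h the change was -0.50 (SE 0.30, adjusted p = 0.454, limma; 95% interval -1.16 to 0.15). Each 2 h array lay below the 0 h array of the same replicate number. The lowest adjusted p at 2 h among 11 alternative settings of the processing was 0.0744 (limma), so it passed in none of them. Without background correction the changes were smaller, -0.93 at 6 h and -0.80 at 18 h, and still passed (adjusted p = 0.00431 and 0.00827, limma). As deposited, before normalization, its signal averaged 203.1 ± 54.9 units at 6 h and 237.3 ± 68.4 at 18 h. At 0 h it averaged 288.5 ± 40.4, and the arrays of both later times overlapped with those at 0 h.

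Smo, the transducer that Ptch1 restrains, read 7.32, 7.53 and 6.98 at 0 h, 6.99, 7.50 and 7.22 at 2 h, 6.28, 6.55 and 6.19 at 6 h, and 5.90, 6.45 and 5.71 at 18 h (ILMN_2986978). Here too no array at 6 h or 18 h reached the lowest array at 0 h, and the 2 h arrays lay among those at 0 h. Its mean was 6.34 ± 0.19 at 6 h, against 7.28 ± 0.28 at 0 h (SD, n = 3 each), a change of -0.94 (SE 0.22, adjusted p = 0.00624, limma). At 18 h it was 6.02 ± 0.38, a change of -1.26 (SE 0.22, adjusted p = 0.000705, limma), or 2.39-fold lower. At 2 h it was -0.04 (SE 0.22, adjusted p = 0.964, limma). At 18 h against 6 h it changed by -0.32 (SE 0.22, adjusted p = 0.404, limma), with overlapping arrays. Without background correction its changes were -0.51 at 6 h and -0.64 at 18 h, and also passed (adjusted p = 0.0061 and 0.00117, limma). As deposited, before normalization, its signal averaged 184.8 ± 18.3 units at 6 h and 176.7 ± 8.4 at 18 h. At 0 h it averaged 208.7 ± 43.8, and here too the arrays of both later times overlapped with those at 0 h.

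Gli3, the factor that serves mainly as a repressor, did not pass at any time. It read 8.60, 8.58 and 7.85 at 0 h, 8.51, 8.78 and 7.74 at 2 h, 8.05, 8.06 and 7.43 at 6 h, and 7.67, 8.38 and 7.95 at 18 h (ILMN_2449396). Taken without regard to replicate number the groups overlapped at every time, and the third replicate was the lowest at 0 h, 2 h and 6 h. Its change was 0.00 at 2 h (adjusted p = 0.9998), -0.49 at 6 h (95% interval -1.13 to 0.14, adjusted p = 0.241, limma) and -0.34 at 18 h (95% interval -0.97 to 0.29, adjusted p = 0.412, limma). At 6 h each array lay below the 0 h array of the same replicate number. With replicate numbers as a block Gli3 did not pass at 6 h either (adjusted p = 0.0761, limma). Whether its change differed from those of Ptch1 and Smo was not tested.

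Sufu, the cytoplasmic inhibitor of the Gli factors, read 6.87, 6.48 and 6.48 at 0 h, 6.82, 6.97 and 6.94 at 2 h, 7.37, 7.15 and 7.34 at 6 h, and 7.84, 6.61 and 6.82 at 18 h (ILMN_2441176). All 3 arrays at 6 h lay above those at 0 h, whereas at 18 h a single array was far above and the other two lay among the 0 h values. Its mean was 7.29 ± 0.12 at 6 h, against 6.61 ± 0.22 at 0 h (SD, n = 3 each). The change of 0.67 (SE 0.25, adjusted p = 0.0642, limma; 95% interval 0.13 to 1.22) did not pass, and passed with replicate numbers as a block (adjusted p = 0.0345, limma). The change was 0.30 at 2 h (adjusted p = 0.627, limma). At 18 h it was 0.48 (SE 0.25, adjusted p = 0.172, limma), or 0.10 without 18 h replicate 1.

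**Figure D3:**
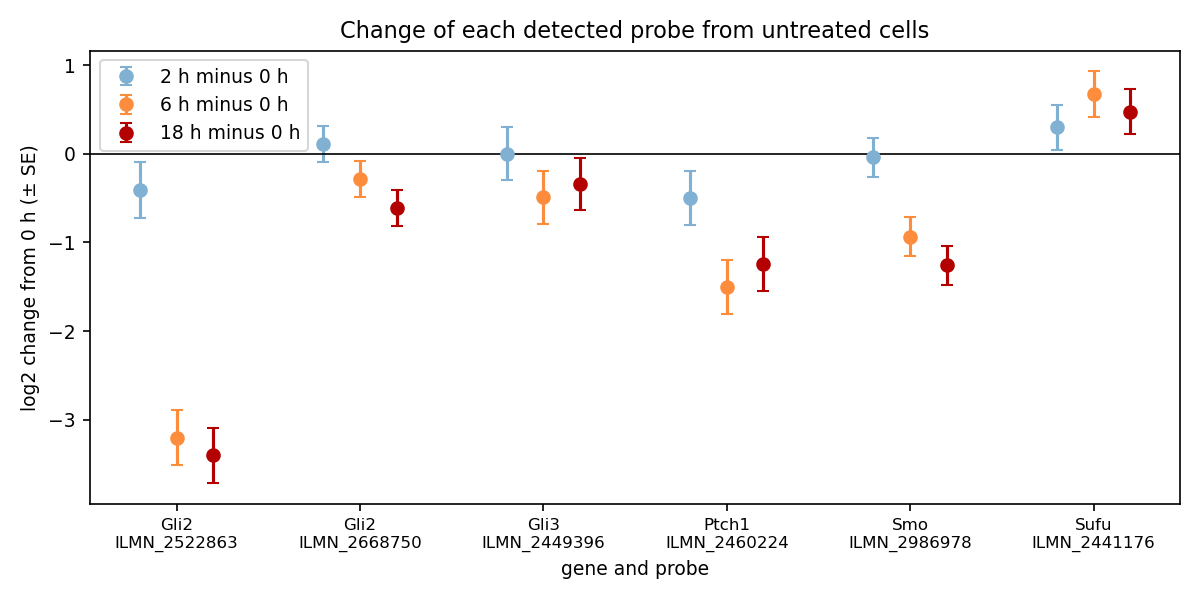
Change of each tested probe from untreated cells on the log2 scale (y axis), at 2 h, 6 h and 18 h, with the SE of the fit as bars. The brighter probe of Gli2 lies at -3.20 and -3.40 at the later times, Ptch1 at -1.51 and -1.25, Smo at -0.94 and -1.26, and Sufu above 0 at all times.

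Within each time, the arrays were ordered alike for some of these genes. Gli2 (ILMN_2522863) and Ptch1 were both highest in replicate 3 and lowest in replicate 2 at 0 h, 2 h and 6 h, whereas Gli3 was lowest in replicate 3 at those times. At 18 h Ptch1 was again highest in replicate 3, but Gli2 was highest in replicate 2. The mean log2 signal of 10 ES cell marker genes was also highest in replicate 3 and lowest in replicate 2 at 0 h (11.52 and 10.99), 2 h (10.98 and 10.70) and 6 h (9.83 and 9.76). Over the 12 arrays this marker mean had a Pearson r of 0.97 with Gli2, 0.88 with Ptch1, 0.84 with Smo and 0.40 with Gli3. For deviations from the mean of each time, r was 0.71, 0.75, -0.36 and -0.26 in turn. Such deviations of Gli2 and Ptch1 also had negative r with the other marker lists described below, often of like size. For fibroblasts and feeder cells r was -0.65 and -0.71, and for neural progenitors -0.72 and -0.62. For mesoderm it was -0.69 and -0.75, and for primitive endoderm -0.39 and -0.50. The part of these markers in the levels of Gli2 and Ptch1 was not tested.

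**Figure D4:**
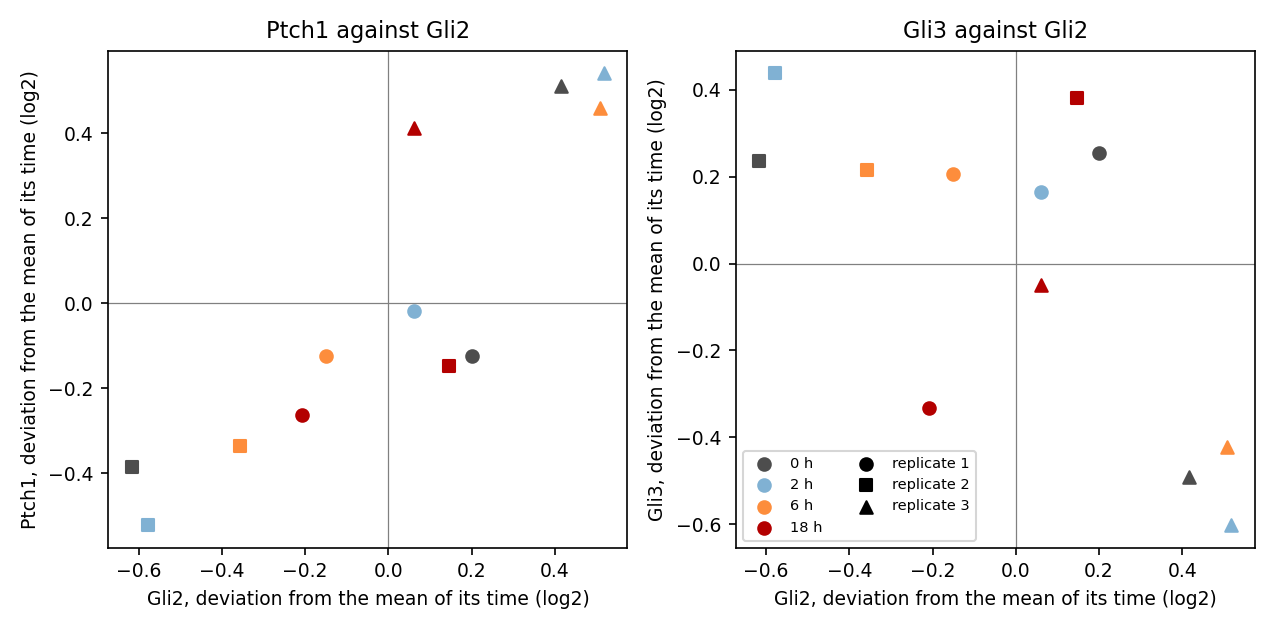
Deviation of each of the 12 arrays from the mean of its time, in log2 units, for Ptch1 (left) and Gli3 (right) on the y axis against Gli2 (ILMN_2522863) on the x axis, with colours for time and symbols for replicate number. Replicate 3 at 0 h, 2 h and 6 h lies at the upper right for Ptch1 and at the lower right for Gli3.

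The 10 ES cell markers, among them Pou5f1, Nanog and Zfp42, were detected on every array, and their summed signal as deposited was lower at the later times. It ranged from 25123 to 37855 units at 0 h, from 22935 to 36006 at 2 h, from 11326 to 17108 at 6 h and from 10718 to 20982 at 18 h. Of 10 markers of fibroblasts and feeder cells, 3 were detected on all arrays at 18 h and 1 at 0 h, with 3 and 5 detected on no array at these times. Their summed signal was 1705 to 2142 units at 18 h, against 981 to 1321 at 0 h. The largest difference among them was that of Thy1, a surface glycoprotein, with a mean level of 9.15 at 18 h, against 6.93 at 0 h, while Dcn, Lum and Col3a1 were detected on no array. For 8 markers of primitive endoderm it was 1879 to 2250 at 18 h, against 1443 to 1848 at 0 h, and for 6 of mesoderm 817 to 918 at 18 h, against 615 to 726 at 0 h. For 6 of neural progenitors, 5 of them detected on no array at 18 h, it was 727 to 866 at 18 h, against 606 to 698 at 0 h. These sums include background, and the mean normalized log2 signal of the neural list was 4.81 to 4.97 at 18 h, against 4.85 to 4.95 at 0 h. In the mesoderm list the largest difference was that of Foxc2, with a mean level of 5.83 at 18 h, against 4.66 at 0 h. Eomes (6.22 at 18 h, 6.35 at 0 h) and Tbx6 (5.14 and 5.25) were slightly lower at 18 h. Foxc2 is also in the list of Gli-responsive genes below. In such bulk samples fewer cells of a type and less RNA per cell cannot be told apart, and the part of these markers in the changes of Ptch1, Smo and Gli2 was not tested.

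By likeness over the 12 arrays, the genes closest to Gli2 (ILMN_2522863), read by their brightest probe, were Epb41l4a (Pearson r 0.987), Klf13, Fgf17 and Hspa9 (0.981 each) and Gdf3 (0.979). Fgf17, a fibroblast growth factor, read 5.39 at 6 h and 5.41 at 18 h, against 8.70 at 0 h. Gdf3, a TGF-beta family ligand, read 6.78 at 6 h and 5.87 at 18 h, against 10.26 at 0 h. Ptch1 had an r of 0.902 with Gli2 and Smo 0.836, in places 306 and 687 among 11444 genes, so many genes outside the pathway were closer. The genes closest to Ptch1 were Trmt1 (0.964), Polr3e (0.957) and Ccnl1 (0.955), and those closest to Smo were Zfp362 (0.974), Lrig3 (0.963) and Dlg5 (0.962). Closest to Gli3 were Ahnak (0.982), Pid1 (0.943) and Phldb2 (0.942), and closest to Sufu were Ap3s2 (0.940), Gtf2f1 (0.934) and Nt5dc3 (0.922). These values are descriptions, since the 12 arrays share 4 exposure times.

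The rest of the pathway was read through lists of 82 further genes, of which 54 were tested, each by its brightest probe. At 2 h 1 rose and none fell, where 2.99% of all 11445 genes passed. At 6 h 12 rose and 6 fell, where 30.1% of all genes passed, and at 18 h 14 rose and 4 fell, where 35.3% passed. From 6 h to 18 h 3 rose and 1 fell, where 10.1% passed. Those that rose over this interval were Ift88 (0.64, adjusted p = 0.0147, limma), Ift122 (0.74, adjusted p = 0.0292, limma) and Zic1, detected on 0 of 3 arrays at 6 h (adjusted p = 0.0283, limma). The call of Ift88 was lost without 6 h replicate 3 (0.059) or 18 h replicate 3 (0.053). The call of Ift122 and that of Zic1 were each lost without any 1 of replicates 1, 2 and 3 at 6 h (adjusted p of 0.0679, 0.0687 and 0.108 for Ift122, 0.0793, 0.0637 and 0.0968 for Zic1) and without 18 h replicate 1 (0.0873 and 0.087) or 2 (0.055 and 0.1). That of Zic1 was also lost with all probes tested (0.0621). Over all probes, 14.3% passed higher and 12.9% lower at 6 h, and 16.5% higher and 15.8% lower at 18 h. The list's median change was 0.04 at 6 h and 0.16 at 18 h, beside 0.02 and 0.05 over all genes. With replicate numbers as a block, 4 were called at 2 h and 8 between 6 h and 18 h.

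Of the ligands, Dhh (desert hedgehog) rose. It read 4.88, 6.12 and 5.43 at 0 h, 6.10, 6.16 and 6.26 at 2 h, 6.60, 7.00 and 6.63 at 6 h, and 7.72, 7.46 and 7.06 at 18 h. All arrays at 6 h and 18 h exceeded those at 0 h, where 2 of 3 detected it. Its change was 1.27 at 6 h (SE 0.26, adjusted p = 0.00318, limma) and 1.94 at 18 h (SE 0.26, adjusted p = 0.000126, limma). At 2 h it was 0.69 (adjusted p = 0.198, limma), and passed without 0 h replicate 2 (1.03, adjusted p = 0.0393). Both probes of Shh (sonic hedgehog) were detected on 0 of 12 arrays, and the brighter of 2 for Ihh (Indian hedgehog) on 3 of 12, with a change of -0.07 at 18 h (adjusted p = 0.853, limma).

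Of the 5 tested genes for ligands and their release, 2 rose at 6 h and at 18 h, and 1 fell at 6 h. Over all genes 30.1% passed at 6 h and 35.3% at 18 h. Disp1, which frees lipid-bearing ligand from the cell, rose by 0.96 at 6 h (adjusted p = 0.0113, limma) and by 0.82 at 18 h (adjusted p = 0.022, limma). Its value at 18 h did not pass without 0 h replicate 2 (0.0502) or 3 (0.0864) or 18 h replicate 1 (0.094, change 0.48). Nor did it pass when dim probes were kept (0.0546) or when the fit held the 0 h and 18 h arrays alone (0.0691). Scube3, a secreted protein of a family that aids ligand release, fell by 0.82 at 6 h (adjusted p = 0.00556, limma), while a second probe read -0.19.

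At 6 h, where 30.1% of all genes passed, 1 of the 6 tested genes for reception at the cell surface rose. None passed at 18 h, where 35.3% of all genes did. The gene that rose was Mgrn1, a ubiquitin ligase that lowers Smo at the surface, with a change of 0.67 at 6 h (adjusted p = 0.00855, limma). Hhip, a surface protein that binds ligand and a common target of the pathway, was detected on 1 of 12 arrays and was not tested.

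Of 15 tested genes for Gli processing, 4 rose and 3 fell at 6 h, where 30.1% of all genes passed. At 18 h, where 35.3% of all genes passed, 3 rose and 2 fell. Prkaca, a catalytic subunit of protein kinase A, which marks Gli factors for processing, rose by 0.81 at 6 h (adjusted p = 0.00698, limma) and 0.95 at 18 h (adjusted p = 0.00199, limma). Stk36, related to the fly kinase Fused, rose by 1.25 (adjusted p = 0.0059, limma) and 1.34 (adjusted p = 0.00299, limma). Csnk1d, a casein kinase, fell by 1.41 at 6 h (adjusted p = 0.000184, limma) and fell by 1.06 at 18 h (adjusted p = 0.000845, limma), with 4 further probes at -0.15 to -1.33 at 6 h. Its change at 2 h, -0.56, passed with replicate numbers as a block (adjusted p = 0.0336, limma) and not otherwise (0.151). Cul1, a scaffold of the ubiquitin ligase that recognises phosphorylated Gli3, fell at 6 h (-1.33, adjusted p = 0.00245, limma) and at 18 h (-1.67, adjusted p = 0.000373, limma), its second probe reading -1.09 and -0.85.

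Of 12 tested genes of ciliary transport, 3 rose and none fell at 6 h and at 18 h. Over all genes 30.1% passed at 6 h and 35.3% at 18 h, a larger share than in this list. Kif3a, a motor subunit that carries cargo into the cilium, rose by 1.24 at 6 h (adjusted p = 0.000116, limma) and 1.37 at 18 h (adjusted p = 3.09e-05, limma), and a second probe read 1.88 and 1.54. Its partner Kif3b rose by 0.91 at 2 h (adjusted p = 0.0114, limma) and 1.08 at 6 h (adjusted p = 0.000334, limma), and was lower at 18 h than at 6 h by a change of -0.69 (adjusted p = 0.0171, limma). A second probe of Kif3b read 0.08 at 2 h and 0.09 at 6 h, and its calls were lost at 2 h without 2 h replicate 3 (0.0504) and between 6 h and 18 h without 6 h replicates 1 (0.0614) or 3 (0.0554) or 18 h replicate 2 (0.0709). The transport proteins Ift88 and Ift122 rose at 18 h, by 1.00 (adjusted p = 0.000189, limma) and 1.47 (adjusted p = 0.000102, limma). Ift122 also rose at 6 h, by 0.73 (adjusted p = 0.0132, limma), and did not pass there without 0 h replicate 3 (0.0545) or 6 h replicate 1 (0.0503).

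Of 12 tested genes that respond to Gli factors in other tissues, 2 rose and 2 fell at 6 h, where 30.1% of all genes passed. At 18 h, where 35.3% of all genes passed, 3 rose and 2 fell. Ccnd1, the G1 cyclin D1, read 11.05, 10.45 and 10.17 at 0 h, 10.93, 10.92 and 10.40 at 2 h, 9.24, 9.46 and 9.09 at 6 h, and 8.07, 9.10 and 8.34 at 18 h. The arrays at 6 h and 18 h lay below all those at 0 h. It fell by 1.29 at 6 h (adjusted p = 0.00348, limma) and fell by 2.06 at 18 h (adjusted p = 0.000109, limma), and its other probes read -1.21 and -1.47 at 6 h. Snai1, a factor of epithelial to mesenchymal transition, rose by 1.69 at 6 h (adjusted p = 0.00147, limma) and 1.34 at 18 h (adjusted p = 0.00489, limma). At 2 h its change was 1.21 (adjusted p = 0.0575, limma, and 0.00718 with replicate numbers as a block).

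Foxc2, a forkhead factor of mesoderm, was detected on no array at 0 h and on all 3 at 6 h and 18 h, at least 1.73-fold higher at 6 h (measured means 5.85 at 6 h and 4.66 at 0 h, adjusted p = 0.00375, limma) and at least 1.71-fold at 18 h (mean 5.83, adjusted p = 0.00321, limma). Hsd11b2, which inactivates glucocorticoids, was at least 1.97-fold higher at 18 h (means 6.04 at 18 h and 4.85 at 0 h, adjusted p = 0.00974, limma), and did not pass without 18 h replicate 1 (0.0549). At 6 h its change did not pass (adjusted p = 0.0669, limma), and it passed with the replicate block (0.024), without 6 h replicate 3 (0.0188) and without 18 h replicate 1 (0.0373). Foxc2 and Hsd11b2 entered the tested set only through arrays in the drug, so that a difference from 0 h was built into their selection. With all probes tested the adjusted p was 0.0125 at 6 h and 0.011 at 18 h for Foxc2 and 0.0348 at 18 h for Hsd11b2 (limma).

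Of 4 tested zinc finger factors related to the Gli family, none passed at 6 h, where 30.1% of all genes passed. At 18 h 3 rose, where 35.3% of all genes passed. Glis1 rose by 0.63 (adjusted p = 0.015, limma), Glis3 by 0.50 (adjusted p = 0.0316, limma), and Zic1, detected on no array at 0 h, was at least 1.30-fold higher (means 5.44 at 18 h and 4.71 at 0 h, adjusted p = 0.0302, limma). All 3 calls were lost with 75th percentile scaling (0.063, 0.21 and 0.223), and without 0 h replicate 1 (0.0634, 0.0924 and 0.0834) or 18 h replicate 1 (0.0611, 0.0681 and 0.121). In all, the call of Glis1 was lost in 4 of the settings tried, that of Glis3 in 11 and that of Zic1 in 9. Glis3 was detected on 1, 1, 3 and 3 arrays at 0 h, 2 h, 6 h and 18 h, so its later arrays took it into the tested set. With all probes tested Glis3 passed at 18 h (0.0272). Zic1 was detected on 0, 1, 0 and 3 arrays at 0 h, 2 h, 6 h and 18 h, so it was tested only because it was high at 18 h, and with all probes tested it did not pass (0.0684). Glis1 passed at 6 h with the replicate block (0.0494), with 1 probe per gene (0.0444) and when any 1 of 3 arrays was left out, the second at 0 h (0.0211), the first at 2 h (0.0497) or the first at 18 h (0.0483).

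**Figure D5:**
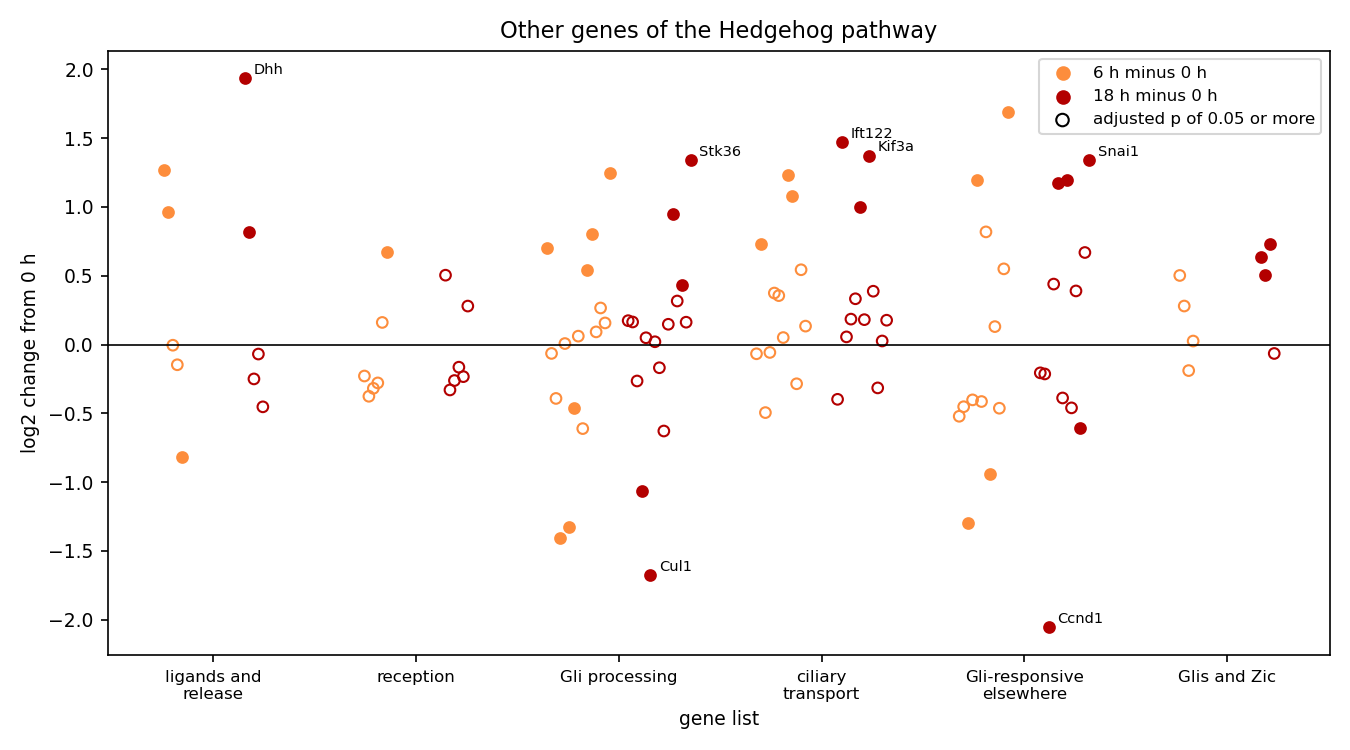
Change from 0 h on the log2 scale (y axis) of the 54 tested genes of the wider lists at 6 h and 18 h, grouped by list (x axis), filled where the adjusted p was under 0.05. Dhh lies highest at 18 h, at 1.94, and Ccnd1 lowest, at -2.06.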

How the data were processed

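RNA of 12 samples was labelled with biotin and hybridized to 1-colour Illumina bead arrays, per the labels' protocols. The intensity that the authors deposited for each probe and array is unnormalized, per the file headers and the values, and the submitters' processing notes name GenomeStudio, without a version. The detection p-value in the same deposited table compares a probe with negative control beads, per the file headers. A second deposited table of intensities, quantile normalized from its values, served as an alternative. Gene names came from array annotation, which gave 1 gene to 34885 probes, several to 18 and none to 10378, and 34807 were updated through RefSeq.

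Signals were corrected with normexp (limma 3.58.1, R 4.3.3; background from the detection p-values, offset 16), quantile normalized and log2 transformed. Probes detected on at least 3 of 12 arrays were kept (20029). A linear model with 1 mean per time was fitted over all arrays with limma, 2-sided, with Benjamini-Hochberg adjustment over all probes kept. Between 16813 and 18111 probes were detected per array, arrays of 1 time correlated at 0.97 to 0.988, and the median SE was 0.206. The number of arrays limits the precision. The fit was also run on simulated data with few changed probes and noise independent between arrays. That run does not cover the likeness of arrays that share a replicate number.

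The members and lists were chosen with earlier results of these data known. Named were all probes of the 6 genes, Shh, Ihh, Dhh and Hhip, up to 4 genes of each wider list that passed at 6 h or 18 h with the largest change at 18 h, and by likeness 5 genes for Gli2 and 3 for each other gene tested. The main fit did not pair the arrays, and replicate numbers entered only where a replicate block is named. For 2 h and 6 h against 0 h and 18 h against 6 h, every same-numbered pair of deviations correlated above 0.1. This did not hold for 18 h against 0 h (0.0645 for replicate 1).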

Additional observations from a re-analysis of the deposited data

How the results depend on the processing

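Calls of Ptch1 and Smo at 6 h and 18 h held under all 11 alternatives and without each of the 12 arrays. The 4 probes gave 2 to 3 calls at 6 h, the third being Sufu, which passed with 75th percentile scaling (adjusted p = 0.0487), only the groups compared (0.0221), the replicate block (0.0345) and without 18 h replicates 1 (0.00654) or 2 (0.044). The replicate block moved the count of all probes called from 513 to 988 at 2 h and from 1832 to 2993 for 18 h against 6 h, and that of the wider list to 4 at 2 h and 8 for 18 h against 6 h. Calls of all probes numbered 248 at 2 h with only the groups compared, and 3586 at 6 h and 4184 at 18 h with 1 probe per gene, where fewer features are tested. The wider list had 7 calls for 18 h against 6 h without background correction, with an offset of 50 or with the authors' values, and 2 at 2 h with an intensity trend and a robust prior together. Leaving out 1 array gave 137 to 709 calls of all probes at 2 h and 862 to 2200 for 18 h against 6 h, and 0 to 2, 11 to 19 and 0 to 5 calls of the wider list at 2 h, at 18 h and for 18 h against 6 h. The change of the brighter Gli2 probe was -2.39 at 6 h and -2.50 at 18 h without background correction, and that of the dimmer at 18 h lay between -0.91 and -0.23. Of 1804 values of named wider-list genes under alternatives, 49 lost and 22 gained the call and 0 reversed. The 1804 include values not called in the main fit, which could not lose a call. A sign change counted as reversed only where the value passed in the main fit or in the alternative. Signals near background limit the dim probes, and the cause of these shifts was not tested.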
